A study of Mus musculus with 8 samples.

Results

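Mesenchymal stem cells (MSC) grown from the bone marrow of NOD mice were profiled on 4 arrays, 1 for each culture, and these were chosen by the strain label NOD. They were 4 of the 8 samples of a study that also held 4 BALB/c cultures, a strain used there as the reference. The series text numbers the NOD samples 1 to 4 of the 8, while the sample list begins with the BALB/c cultures. Sample titles, strain labels and the headers of the signal table name the strain in the same way and were followed, and the strain was not tested on the data. The NOD mouse is an inbred strain prone to autoimmune diabetes, and the animals were normoglycaemic at the time of collection. Marrow from the femurs and tibiae of 5 or more mice was pooled for a culture and the adherent cells were taken at passage 4, although the sample titles read as single mice. The age of the mice is not given in the sources used here. A culture step with interleukin-1 beta is described for the study, none of the 4 arrays is labelled with it, and all were taken as untreated. No transgene or engineered allele is named for the strain.

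Marrow MSC are adherent stromal cells that can be driven toward bone, cartilage or fat. They support blood formation through matrix, adhesion molecules, growth factors and chemokines, and they can dampen immune responses. In culture they deposit a collagen-rich matrix, and without induction many carry genes of early bone formation.

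The genes that were given to mark these cells are Bglap2, Ptn and Il1rl1. Bglap2 is a copy of the osteocalcin gene, which encodes a calcium-binding protein that osteoblasts secrete into bone. Ptn encodes pleiotrophin, a heparin-binding growth factor. Il1rl1 encodes ST2, the receptor of interleukin-33, in a membrane form and a secreted decoy form. In RefSeq's annotation of the mouse assembly GRCm38.p6, Bglap2 lies at chr3:88377736-88378701, between its near copies Bglap3 at chr3:88368616-88372741 and Bglap at chr3:88383495-88384466. Ptn lies at chr6:36714924-36810179 and Il1rl1 at chr1:40404864-40465418. The following 250 bases upstream of annotated transcription starts are shown because these genes varied between the cultures. They are printed 5′ to 3′ on the strand of the gene, from RefSeq with GRCm38.p6. Capitals mark matches to 3 motifs, looked for on both strands. The first motif is TATAAA, which places the start of transcription in many promoters. The next is CCAAT, a site of the factor NF-Y. The last is ACCACA, the core letters bound by RUNX factors, among them the bone factor Runx2. The motifs were chosen after the sequences and the array values had been seen. A CArG box, a longer RUNX site and sterol-response elements had been searched too and are not given.
Bglap, chr3:88384467-88384716, minus strand: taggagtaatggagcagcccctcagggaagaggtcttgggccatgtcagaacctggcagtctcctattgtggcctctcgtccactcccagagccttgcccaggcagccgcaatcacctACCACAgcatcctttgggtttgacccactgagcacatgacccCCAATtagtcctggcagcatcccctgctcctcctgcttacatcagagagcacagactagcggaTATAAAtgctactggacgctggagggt
Ptn, chr6:36810180-36810429, minus strand: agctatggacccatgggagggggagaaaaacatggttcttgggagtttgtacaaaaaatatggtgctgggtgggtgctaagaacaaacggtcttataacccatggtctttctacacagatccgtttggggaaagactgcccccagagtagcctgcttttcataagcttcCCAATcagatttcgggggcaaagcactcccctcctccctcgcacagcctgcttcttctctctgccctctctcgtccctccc
Il1rl1, first window, chr1:40429320-40429569, plus strand: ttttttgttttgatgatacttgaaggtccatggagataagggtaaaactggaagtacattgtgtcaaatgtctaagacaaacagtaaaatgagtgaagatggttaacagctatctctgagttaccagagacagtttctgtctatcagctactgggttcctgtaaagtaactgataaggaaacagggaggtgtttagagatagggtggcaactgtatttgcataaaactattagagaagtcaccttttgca
Il1rl1, second window, chr1:40439379-40439628, plus strand: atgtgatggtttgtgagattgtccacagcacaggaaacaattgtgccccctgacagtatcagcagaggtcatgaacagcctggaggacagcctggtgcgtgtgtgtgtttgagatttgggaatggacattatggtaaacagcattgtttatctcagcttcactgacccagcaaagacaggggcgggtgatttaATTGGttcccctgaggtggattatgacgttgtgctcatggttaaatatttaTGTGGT

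The Bglap window held TATAAA 27 bases, CCAAT 90 bases and ACCACA 132 bases before the start, each on the printed strand. The Ptn window held CCAAT 81 bases before the start. The first Il1rl1 window held none of the 3 motifs, and the second held CCAAT and ACCACA on the other strand, 57 and 6 bases before the start. Among all 32851 windows of the same length, 12.4% held TATAAA, 33.8% held CCAAT and 14.0% held ACCACA. These matches describe letters and not bound sites, and the window of Bglap2 is not shown.

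Each array gave, for 46185 probes kept here, a mean bead signal and a detection p-value, which ranks that signal against the negative controls of the array. A probe is called detected when this p-value is under 0.05. Median signal ran from 68.7 to 78.6 over the 4 cultures and 36.1% to 38.0% of probes were detected on each. All 4 arrays detected 14871 probes (32.2%), and 26775 probes were detected on none. A gene name could be read for 9819 probes, which stand for 8111 genes, and 10575 of the probes detected on all 4 arrays stayed unnamed. Of the 8111 named genes, 3808 were detected on all 4 arrays (46.9%), 690 on 1 to 3 and 3613 on none. That 46.9% is the background for every count of detected list members below. Levels below are log2 normalized intensities, each gene read from its brightest probe, given as mean ± SD over the 4 cultures. The median level of the 3808 genes was 9.44, with quartiles at 7.92 and 11.01. Brightness depends on the probe as well as on the transcript, so an order of genes is an order of signal and not of transcript number. In a culture, fewer cells that express a gene and less RNA per cell cannot be told apart.

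Culture 4 of the NOD group stood apart in one way before any gene is considered. It stood between the other cultures in 98.8% of the 3781 probes, named or not, that were detected on all 4 arrays and spanned more than 2-fold. For cultures 1, 2 and 3 that share was 57.7%, 19.9% and 23.5%. The signal of culture 4 was close to the plain average of the other 3 on the linear scale. The median distance from that average was 0.11 on the log2 scale, or 1.08-fold, against 0.50, 0.84 and 0.85 for cultures 1, 2 and 3 set against their own others. In culture 4, 97.4% of these probes lay within 0.5 of the average and 2 lay more than 2-fold away, an unnamed probe and that of Fbxw5. Among the BALB/c cultures, the culture numbered 4 lay between the others in 72.2% of 7217 such probes, at a median distance of 0.51. Whether culture 4 holds material of the other cultures was not tested, and the labels give it only as a further mouse. An SD over 4 cultures therefore counts a culture whose values follow the other 3, and SDs over cultures 1 to 3 are given beside the main results.

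**Figure D1:**
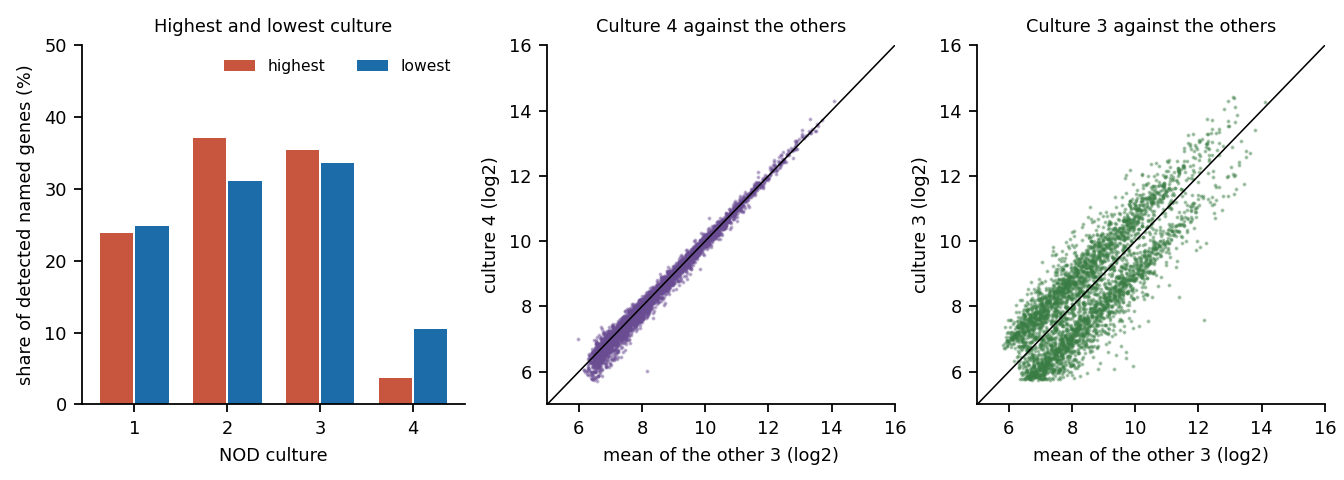
Left, the share of the 3808 detected named genes whose highest (red) or lowest (blue) normalized intensity was in each NOD culture, in %. Middle and right, the log2 intensity of culture 4 and of culture 3 for the 3781 probes spanning more than 2-fold, against the log2 of the linear mean of the other 3 cultures, with the line of equality. Culture 4 was highest in 3.68% and lowest in 10.5% of genes, and its points follow the line, while those of culture 3 form bands on either side of it.

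Of the 3808 genes, culture 1 was highest in 23.8%, culture 2 in 37.1%, culture 3 in 35.4% and culture 4 in 3.68%. Culture 1 was lowest in 24.8%, culture 2 in 31.1%, culture 3 in 33.6% and culture 4 in 10.5%. These shares are the background for every count of highest or lowest culture below. Across genes, which are not independent replicates, cultures 2 and 3 were the least alike, with a Pearson correlation of 0.936, and cultures 1 and 4 the most alike at 0.989. Among cultures 1 to 3 the correlations were 0.966 (1 and 2), 0.959 (1 and 3) and 0.936 (2 and 3).

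Most osteoblast genes with a probe were detected in NOD MSC, led by structural matrix genes that hardly varied and osteocalcin genes that varied widely. The osteoblast list held 14 genes, of which 8 had a named probe and 7 were detected on all 4 arrays. Col1a1, the main chain of type I collagen, stood at 13.76, 14.15, 14.20 and 14.12 in cultures 1 to 4 (14.06 ± 0.20). Culture 1 was the low one, by less than 0.5. Spp1, which encodes osteopontin, a phosphoprotein of bone matrix, was at 13.83, 13.81, 13.61 and 13.70 (13.74 ± 0.10). Col1a2, the other chain of type I collagen, was at 10.26 ± 0.19. All 3 genes kept their cultures within 1.36-fold of each other.

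Osteocalcin behaved differently. Bglap2 stood at 12.66 in culture 1, 10.33 in culture 2, 13.74 in culture 3 and 12.80 in culture 4 (12.38 ± 1.45, or an SD of 1.74 over cultures 1 to 3). Culture 2 was the low one and culture 3 the high one, 10.7-fold apart. Bglap followed the same order at 12.12, 9.57, 13.29 and 12.45 (11.86 ± 1.60), as did Bglap3 at 11.89, 9.90, 13.26 and 12.28 (11.83 ± 1.41). By deposited signal the Bglap2 probe ranked 681, 3847, 209 and 592 among 46185 probes in cultures 1 to 4. The 3 genes are near copies whose probes may share transcripts, so counts that include more than 1 of them do not rest on separate observations.

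Alpl, the alkaline phosphatase of mineralizing cells, stood at 9.73, 10.01, 11.72 and 10.81 (10.57 ± 0.89, or 1.07 over cultures 1 to 3). It was highest in culture 3 like osteocalcin, but its lowest culture was culture 1 and not culture 2. Pth1r, the receptor of parathyroid hormone, was at 7.51, 7.30, 8.21 and 7.67 (7.67 ± 0.39). Runx2, the transcription factor that commits cells to bone, was detected on no array through either of its 2 probes. Over the osteoblast list, 5 of 7 detected genes were highest in culture 3, Bglap and Bglap2 both among them, against 35.4% of all detected genes. When arrays were scaled to one median instead, 4 of the 7 were highest there, against 41.1% of all detected genes.

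Ptn stood at 10.46, 10.79, 12.45 and 11.52 (11.31 ± 0.88, or 1.07 over cultures 1 to 3). Culture 3 was 3.97-fold above culture 1, and cultures 1 and 2 were close. Il1rl1 stood at 11.78, 12.70, 14.30 and 13.73 (13.13 ± 1.12, or 1.28 over cultures 1 to 3). Cultures 3 and 4 were the high ones, and culture 3 lay 5.75-fold above culture 1. In culture 3 its probe ranked 47 of 46185, in culture 4 it ranked 214, and in cultures 2 and 1 it ranked 652 and 1511. A second Il1rl1 probe was detected on no array (5.04 ± 0.20). The files do not say which of the receptor's transcripts either probe reads, and the windows printed above lie before 2 different starts of this gene.

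**Figure D2:**
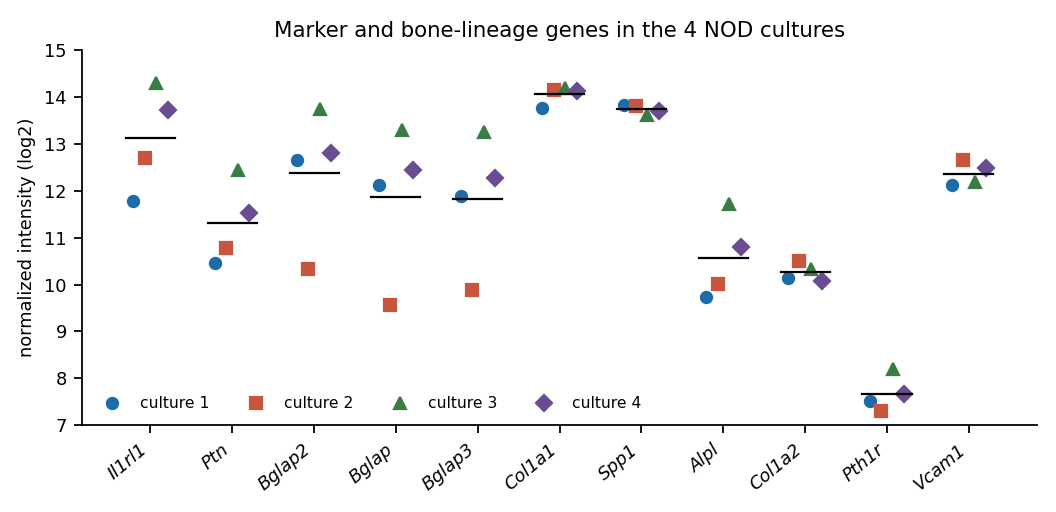
Log2 normalized intensity of the 3 marker genes, the other osteocalcin copies and further bone-lineage and stromal genes in the 4 NOD cultures, with a symbol for each culture and a bar for the mean. Il1rl1, Ptn, Alpl and the osteocalcin genes were highest in culture 3, osteocalcin was lowest in culture 2, and Col1a1 and Spp1 kept within 0.5 log2 units.

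The other lineages that MSC can enter were represented in part. Among 4 adipocyte genes with a probe, Lpl, the lipoprotein lipase, was at 10.61 ± 0.31 and Cebpa, a transcription factor of fat cells, at 10.06 ± 0.25. Fabp4 and Cd36, which serve fatty acid handling in mature fat cells, were detected on no array. Of 5 chondrocyte genes, Sox5 was detected on all 4 arrays at 9.24 ± 0.31 and Prg4 on 1. Col2a1, the collagen of cartilage, and Matn3 and Sox6 were detected on none. Of 3 smooth muscle genes, Acta2, which encodes the actin of myofibroblasts, stood at 10.36, 9.61, 12.41 and 11.43 (10.95 ± 1.23, or 1.45 over cultures 1 to 3). Culture 3 was 6.98-fold above culture 2. Cald1, which encodes the actin-binding protein caldesmon, was also highest in culture 3 and lowest in culture 2 at 8.26, 7.23, 8.90 and 8.10 (8.12 ± 0.69), and Cnn1 was detected on none.

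Among 5 stromal markers with a probe, Vcam1, an adhesion molecule of marrow stroma, was at 12.37 ± 0.25, Alcam at 8.12 ± 0.47 and Eng, a co-receptor of the TGF-beta family, at 7.36 ± 0.63. Eng was lowest in culture 3 (6.52) and highest in culture 2 (8.04), while Alcam was lowest in culture 2 (7.67) and highest in culture 3 (8.77). Cd44 was detected on 3 arrays. Cxcl12, a chemokine by which marrow stroma retains blood stem cells, was detected on none. Non-detection here is a statement about the probe. The probes of Eef1a1, Rpl4, Rpsa and Rpl18, which every cell uses, were also detected on no array, and that of Actg1 on 1.

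Markers of other cells were near background. None of 6 macrophage genes with a probe was detected on all 4 arrays, and Cd68, Csf1r, Itgam, C1qa and C1qb were detected on none. Lyz2, the lysozyme of macrophages and granulocytes, stood at 5.59, 4.92, 8.11 and 6.68 and was detected in cultures 3 and 4 only. The log2 of the summed linear level of the 6 genes was 7.82, 7.71, 8.86 and 8.06 in cultures 1 to 4. Culture 3 was the high one here too, but Lyz2 was the only gene of the 6 detected on any array. Among the undetected genes, C1qa, C1qb and Itgam were highest in culture 3 at 5.40, 5.21 and 5.14. Cd68 and Csf1r were highest in culture 1 at 5.68 and 4.87. All of these values were near background. The part of such cells in the values of culture 3 was not tested. None of 5 lymphocyte and granulocyte genes (Ptprc, Cd3e, Elane, Mpo, S100a9), 2 erythroid genes (Hba-a1, Hbb-b1), 2 endothelial genes (Pecam1, Emcn) and 4 epithelial or neural genes (Krt8, Krt18, Gfap, Nefl) was detected on any array. The skeletal muscle and osteoclast lists had no named probe. Of 352 antigen receptor probes, 5 were detected on all 4 arrays and 333 on none. Of 316 olfactory receptor genes with a probe, 3 were detected on all 4 arrays.

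The brightest genes were those of protein synthesis, the cytoskeleton, mitochondrial transcripts and the extracellular matrix. Among the 25 brightest named genes were, in order, Actb, Rpl24, Eef1g, Ubb, Rps27a, Gapdh, ND4, Rpl41, Rps10, Ifitm1, Rpl23, Col6a1, Rps9, Rpl37, CYTB, Rpl3, Rpl15, Scd2, Itm2b, Atp5j2, Serpinf1 and Ppia. Their levels ran from 14.68 ± 0.05 (Actb, the cytoplasmic beta actin) to 14.31 ± 0.09 (Ppia, a peptidyl-prolyl isomerase). Ifitm1 (14.41 ± 0.06), an interferon-inducible membrane protein, Scd2 (14.33 ± 0.04), a fatty acid desaturase, Col6a1 (14.39 ± 0.07), a chain of type VI collagen, and Serpinf1 (14.32 ± 0.03), a secreted anti-angiogenic serpin, were among them. On each array the 100 brightest named genes were drawn up from the deposited signal, and 77 genes were common to all 4 arrays. The count was also 77 for cultures 1 to 3 alone, and none of Bglap2, Ptn and Il1rl1 was among the genes common to all 4.

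**Figure D3:**
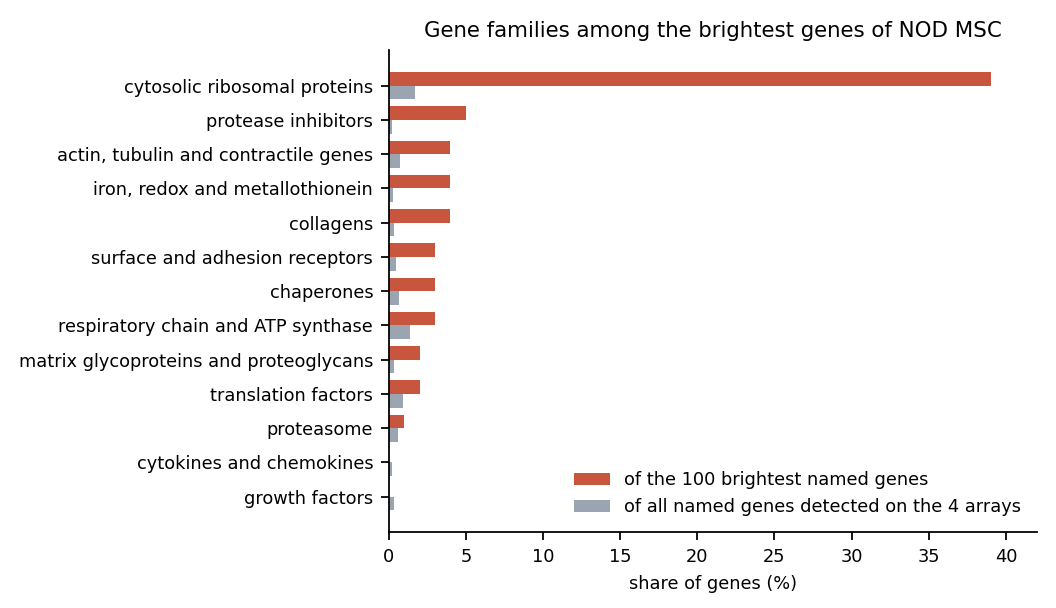
Share, in %, of the 100 named genes of highest mean level (red) and of all 3808 named genes detected on all 4 NOD arrays (grey) that belong to each gene list. Ribosomal proteins made up 39% of the brightest genes and 1.68% of the detected ones, and no cytokine or growth factor was among the brightest 100. The respiratory chain list leaves out the genes of mitochondrial DNA, some of which were among the brightest.

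Cytosolic ribosomal protein genes made up 39 of the 100 brightest and 64 of the 3808 detected genes. Of 70 with a probe, 64 were detected on all 4 arrays, with a median level of 13.95 and a median SD of 0.11. Rpl24, Rps27a and Rpl41, all components of the ribosome, were among its brightest members at 14.47 to 14.67. Other housekeeping lists were nearly complete as well. The respiratory chain and ATP synthase list leaves out the genes of mitochondrial DNA. It had 53 of 58 genes detected at a median of 11.89, led by Atp5j2 (14.32 ± 0.11) and Ndufa13 (14.03 ± 0.08). The proteasome list had 23 of 24 detected at 11.05, led by Psmd1 (13.92 ± 0.15), and translation factors had 36 of 42 detected at 10.95, led by Eef1g (14.67 ± 0.03). Of 13 probes for mitochondrial transcripts that the file names as such, 12 were detected on all 4 arrays. Among these transcripts ND4 (14.48 ± 0.10) and CYTB (14.36 ± 0.07) were brighter than Atp5j2.

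Glycolysis had 13 of 14 genes detected at a median of 11.69, with Gapdh at 14.48 ± 0.13, Pkm at 13.24 ± 0.20 and Tpi1 at 13.16 ± 0.05. Iron, redox and metallothionein genes were among the brightest lists, with 11 of 12 detected at a median of 13.33. The ferritin chains Ftl1 (14.13 ± 0.04) and Fth1 (14.11 ± 0.18), which store iron, the peroxide-reducing Prdx1 (13.97 ± 0.06) and the metal-binding Mt1 (13.96 ± 0.27) led them. Chaperones had 26 of 41 detected at 10.74, with Hspa8 at 14.10 ± 0.10 and the collagen chaperone Serpinh1 at 14.08 ± 0.10. Actin, tubulin and contractile genes had 27 of 34 detected at 11.98, with Tpm4 at 14.19 ± 0.03 and Cnn3 at 14.08 ± 0.17. S100 and annexin genes had 5 of 8 detected at 12.06, led by Anxa5 (13.75 ± 0.26).

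Several matrix genes were among the brightest in NOD MSC. Of 27 collagen genes with a probe, 13 were detected on all 4 arrays, close to the 46.9% of all named genes, but 4 of the 13 were among the 100 brightest. Besides Col6a1 and Col1a1 these were Col6a3 (13.89 ± 0.26), a further chain of type VI collagen, and Col5a1 (13.82 ± 0.08), which nucleates type I fibrils. Matrix glycoproteins and proteoglycans had 13 of 16 detected at a median of 12.36. Mgp (14.25 ± 0.11), which inhibits calcification, Thbs2 (13.96 ± 0.08), an anti-angiogenic thrombospondin, and Dcn (12.98 ± 0.20), which binds collagen fibrils, stood near the top. All 7 collagen processing enzymes with a probe were detected. After the chaperone Serpinh1, the brightest were Pcolce (13.81 ± 0.19), which enhances procollagen cleavage, and Loxl1 (13.09 ± 0.23), which cross-links elastin.

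Matrix proteases were detected about as often as other genes. Fewer of the genes listed as protease inhibitors were detected, but several of those were bright. Of 24 matrix proteases with a probe, 10 were detected on all 4 arrays, near the 46.9% of all named genes, at a median of 10.04, led by Ctsb (13.71 ± 0.05), a lysosomal protease, and 12 were detected on none. Protease inhibitors had 9 of 35 detected, below the 46.9% of all named genes, but those 9 had a median of 13.92 and 5 were among the 100 brightest. The list takes in serpins by family, whether or not they inhibit a protease. Serpinf1 and the collagen chaperone Serpinh1, which is also counted in other lists, are among those 5. Timp3 stood at 13.58, 14.30, 14.36 and 14.17 (14.11 ± 0.36) and Timp2 at 13.88, 13.49, 14.39 and 13.91 (13.92 ± 0.37). Both are secreted inhibitors of metalloproteinases, and the low culture was 1 for Timp3 and 2 for Timp2. Cst3, the secreted cystatin C, was at 13.94 ± 0.06. Many of the undetected members are serpins of liver and skin by background knowledge.

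Among genes of secreted signals, all 6 members of the insulin-like growth factor (IGF) system with a probe were detected. Igfbp4 was at 13.74 ± 0.16, and Igfbp5 at 13.05, 13.55, 12.34 and 13.22 (13.04 ± 0.51), low in culture 3. Both encode proteins that bind IGFs outside the cell, and Igf1 itself was at 9.52 ± 0.21. Of 19 growth factors with a probe, 13 were detected, against 46.9% of all named genes, at a median of 10.01. Prl2c2, which encodes proliferin, was at 13.00 ± 0.37, Tgfb2 at 12.28, 12.33, 12.81 and 12.31 (12.43 ± 0.25), Hdgf at 11.89 ± 0.24 and Pdgfa at 11.88 ± 0.31. Tgfb2 and Tgfb3 were the only TGF-beta genes among the 19, which do not include Tgfb1, and Tgfb2 was the brighter. Culture 3 was the one high culture of Tgfb2, while Tgfb3 (11.30 ± 0.31) was lowest there.

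Among 12 modulators of Wnt, BMP and TGF-beta signalling with a probe, 8 were detected at a median of 11.34. Ltbp2 (13.68 ± 0.13) and Ltbp3 (12.88 ± 0.22), latent TGF-beta binding protein genes, were the brightest. Sfrp1, a secreted Wnt antagonist, stood at 10.68, 12.39, 12.03 and 11.82 (11.73 ± 0.74), with culture 1 low. Fst, which encodes the activin antagonist follistatin, stood at 8.39, 8.92, 10.78 and 9.73 (9.46 ± 1.04, or 1.25 over cultures 1 to 3), and culture 3 was 5.24-fold above culture 1.

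Of 24 cytokine and chemokine genes with a probe, 9 were detected on all 4 arrays, against 46.9% of all named genes, at a median of 10.13. Mif, the macrophage migration inhibitory factor, was the brightest and the steadiest at 13.33, 13.44, 13.41 and 13.47 (13.41 ± 0.06). Ccl25, a chemokine of thymus and gut, was dim and nearly as steady (6.95 ± 0.08), while several other chemokines varied far more. Cxcl1, which draws neutrophils, stood at 11.40, 13.45, 12.92 and 12.81 (12.64 ± 0.88), with culture 1 the low one. Ccl2, which draws monocytes, was at 9.73, 9.27, 11.22 and 10.30 (10.13 ± 0.84), and Cx3cl1, the membrane-bound fractalkine, at 10.45, 10.93, 12.16 and 11.42 (11.24 ± 0.73). Both were highest in culture 3. Cxcl14 (11.62 ± 0.41) spanned 1.99-fold.

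Of 14 genes known from immune modulation by MSC with a probe, 6 were detected on all 4 arrays, near the 46.9% of all named genes. These were Tgfb2, Anxa1 (12.06 ± 0.23), Cd47 (11.55 ± 0.22), Tgfb3, Cd200 (9.23 ± 0.24) and Ptgs1 (8.67 ± 0.64). Anxa1 encodes an anti-inflammatory annexin, and Cd47 and Cd200 encode surface signals that restrain macrophages and other myeloid cells. Ptgs2, the inducible cyclooxygenase, was detected on 3 arrays and was at 5.28, 5.71, 7.76 and 6.24. Cd274, which encodes the checkpoint ligand PD-L1, was detected on 1 array. Ido1 and Tnfaip6 were detected on none. Of 8 genes of interleukin-1 and Toll receptors and their intracellular signalling, 5 were detected on all 4 arrays. Il1rl1 was the brightest, and Tlr4, the sensor of endotoxin, was at 9.20 ± 0.18. The other detected members were the signalling genes Traf6, Irak1 and Irak4. The receptor gene Tlr1 was detected on 1 array. Il1rap, the co-receptor shared by Il1rl1 and the interleukin-1 receptor, was detected on 3 arrays.

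Of 22 genes listed as surface and adhesion receptors with a probe, 17 were detected at a median of 11.17. Those detected take in Cav1 and Nes, which do not encode surface receptors. Gpc1, a heparan sulphate proteoglycan of the membrane, was at 14.06 ± 0.02, the tetraspanins Cd63 and Cd81 at 14.11 ± 0.05 and 13.97 ± 0.08, and the collagen-binding integrin gene Itga11 at 13.41 ± 0.13. Skeletal and mesenchymal transcription factors were dim, with 10 of 18 detected, near the 46.9% of all named genes, at a median of 8.47. Prrx1 (11.22 ± 0.23), a homeobox factor of limb mesenchyme, Sox4 (11.19 ± 0.57) and Ebf1 (9.76 ± 0.25) were the brightest. Immediate early genes had 7 of 9 detected at 10.27, led by Klf6 (13.26 ± 0.06). Among 16 cell cycle genes with a probe, 12 were detected at 10.04, with Ccnd1, the G1 cyclin D1, at 14.03 ± 0.11, and Cdkn1a, which encodes the cell cycle inhibitor p21, at 11.58 ± 0.23.

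The median SD of a gene between NOD cultures was 0.26 on the log2 scale, or 0.30 over cultures 1 to 3. Spread shrank with brightness: the median SD was 0.33 in genes under the lower quartile of level, 0.17 in those above the upper quartile and 0.09 among the 100 brightest. Normalization gave every array the same set of values, and the means of the 100 brightest lay between 13.80 and 14.68. A narrow top range of this kind limits the SD of the brightest genes. The highest and lowest culture differed by over 2 log2 units, or 4-fold, in 81 of 3808 genes (2.13%), and in 81 when culture 4 was set aside. Without culture 3 this count was 13, and without culture 2 it was 31. Culture 3 was more than 2-fold above every other culture in 34 genes and below every other in 84. For culture 2 these counts were 6 and 52, for culture 1 they were 5 and 15, and for culture 4 both were 0.

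The largest spread was that of 5031410I06Rik, at 12.80, 11.26, 7.57 and 12.11 in cultures 1 to 4 (10.94 ± 2.33). Culture 3 alone was low, 37.5-fold below culture 1. Gm17019 was at 10.81, 8.44, 6.16 and 9.64 (8.76 ± 1.98), also lowest in culture 3. Reln, which encodes the secreted glycoprotein reelin, was at 10.87, 7.03, 7.55 and 9.68 (8.78 ± 1.80), high in culture 1 and next in culture 4. Fbxw5, an F-box protein gene, was at 6.37, 9.46, 6.12 and 6.02 (6.99 ± 1.65), so that culture 2 alone was high and culture 4 did not lie between the others.

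Next in spread came osteocalcin and a group that was low in culture 2 and high in culture 3. Ptgis, the prostacyclin synthase, was at 7.81, 5.92, 9.38 and 8.32 (7.86 ± 1.45). Thbs1, a matricellular thrombospondin, was at 9.05, 7.10, 10.59 and 8.99 (8.93 ± 1.43), and Insig1, a sterol-responsive regulator of cholesterol synthesis, at 9.04, 7.33, 10.61 and 9.15 (9.03 ± 1.34). These 3 spanned 9.70 to 11.2-fold. Slc25a27, a mitochondrial carrier gene, was instead high in culture 2 and low in culture 3 at 8.85, 10.16, 6.77 and 9.32 (8.78 ± 1.44), and so was Trp53i11 at 7.45, 9.21, 5.96 and 8.19 (7.70 ± 1.37).

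Bright genes of least spread were Rpl3 (14.36 ± 0.01), the cytoskeletal scaffold gene Iqgap1 (12.61 ± 0.02), Cox6a1 (13.26 ± 0.02), Gpc1 (14.06 ± 0.02) and the importin gene Ipo9 (11.75 ± 0.02). Their highest and lowest culture differed by 1.02-fold to 1.04-fold.

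**Figure D4:**
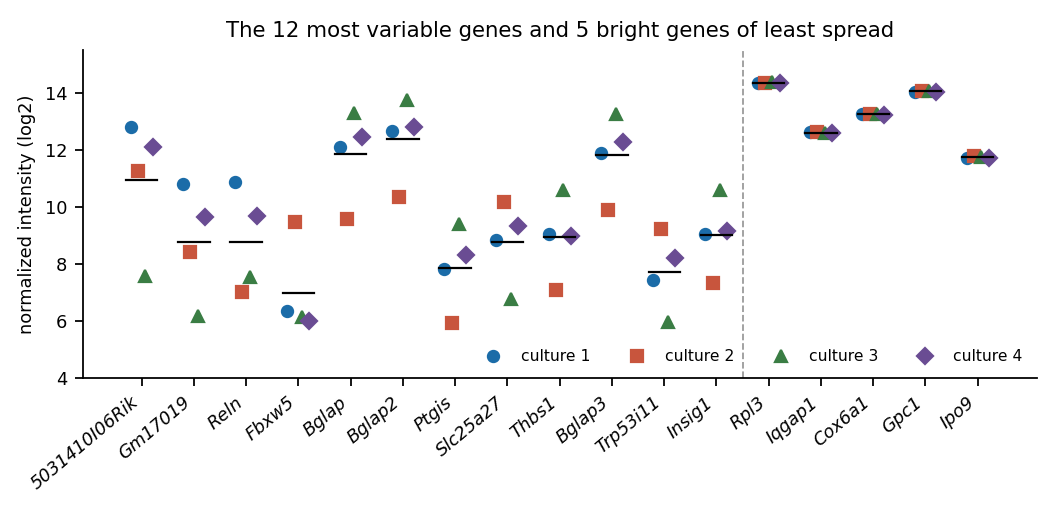
Log2 normalized intensity in the 4 NOD cultures of the 12 genes with the largest SD, left of the dashed line, and of the 5 genes with the smallest SD among those above the upper quartile of level, right of it, with a bar for the mean. The fold between the highest and lowest culture was 9.50 to 37.5 on the left and 1.02 to 1.04 on the right.

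Genes that set 1 culture apart differed in kind. In culture 1, Cxcl1, Dgkh, Actn3, Pde4d and Lss had the largest gaps, and all 5 were lower there than in any other culture, by 1.23 to 1.41 log2 units. Lss, the lanosterol synthase, was at 7.76, 8.99, 9.91 and 9.01. In culture 2 they were Fbxw5, higher by 3.10, and Bglap, Bglap2, Bglap3 and Ptgis, lower by 1.89 to 2.54. In culture 3 they were 5031410I06Rik, Gm17019, Slc25a27, Ank3 and Satb1, all lower, by 1.78 to 3.68. Ank3, which encodes the membrane adaptor ankyrin-G, was at 10.77, 10.51, 8.28 and 10.28, and Satb1, a chromatin organizer, was at 9.19, 9.56, 7.28 and 9.06. In culture 4 the largest gaps belonged to the dim genes Selenof, Gm12666, Gtf3c6, Mapt and Pan3 and were 0.52 to 0.68.

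In some gene lists most members were highest in the same culture. Of 15 detected genes of cholesterol and fatty acid synthesis, 13 were highest in culture 3, against 35.4% of all detected genes. This list was added after its genes had been seen to vary, so the count describes it and does not test it. Their mean deviation from the mean of the 4 cultures was −0.35, −0.26, 0.57 and 0.04 in cultures 1 to 4. Hmgcs1, a synthase of the early mevalonate pathway, stood at 13.01, 13.09, 14.12 and 13.37 (13.40 ± 0.51), and Fdps, the farnesyl diphosphate synthase, at 11.61, 11.96, 13.03 and 12.39 (12.25 ± 0.61). Scd2, the brightest member, did not share the pattern at 14.33, 14.36, 14.28 and 14.36. Of 11 promoter windows found for these genes, 8 held CCAAT, against 33.8% of all windows and 34.3% of those of detected genes. ACCACA was in 3 of the 11 and TATAAA in 0. CCAAT was also in 14 of 28 windows of actin, tubulin and contractile genes, 17 of 53 of ribosomal genes and 3 of 12 of collagens. List and motif were both chosen after data had been seen, so these counts are a description and no link to culture 3 was tested.

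Of 27 detected actin, tubulin and contractile genes, 20 were highest in culture 3 and 13 were lowest in culture 2, against 35.4% and 31.1% of all detected genes. Zyx, a focal adhesion protein gene, was at 13.66, 13.75, 14.47 and 13.91, highest in culture 3 like Acta2 and Cald1 but lowest in culture 1. Of 12 detected cell cycle genes, 9 were highest in culture 3, with a mean deviation of 0.32 there. Ccnd1 was at 13.98, 13.92, 14.18 and 14.02. Of 9 protease inhibitors, 7 were highest in culture 3. Against 37.1% of all detected genes, 8 of 13 matrix glycoproteins and proteoglycans and 7 of 10 skeletal and mesenchymal transcription factors were highest in culture 2. Of 13 glycolysis genes 8 were highest in culture 2 and 4 in culture 3, but in the authors' normalized table these counts turned to 6 and 7.

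Ribosomal and nuclear respiratory chain genes were highest in culture 1 in 36 of 64 and 32 of 53 cases, against 23.8% of all detected genes. The amounts were small, and when arrays were scaled to one median instead these counts were 8 and 17. The median deviation of the 2 lists in culture 1 was 0.08 and 0.13 log2 units. Under median scaling 42 of the 64 ribosomal genes were highest in culture 4, and the median of all detected genes moved to −0.10 in culture 1. Under median scaling the share of all detected genes that were highest in culture 3 became 41.1% and in culture 2 became 34.8%. The culture 3 counts were then 13 for cholesterol, 20 for actin and contractile genes, 8 for the cell cycle and 5 for protease inhibitors. The culture 2 counts were 6 for matrix glycoproteins and proteoglycans, 6 for glycolysis and 7 for transcription factors.

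**Figure D5:**
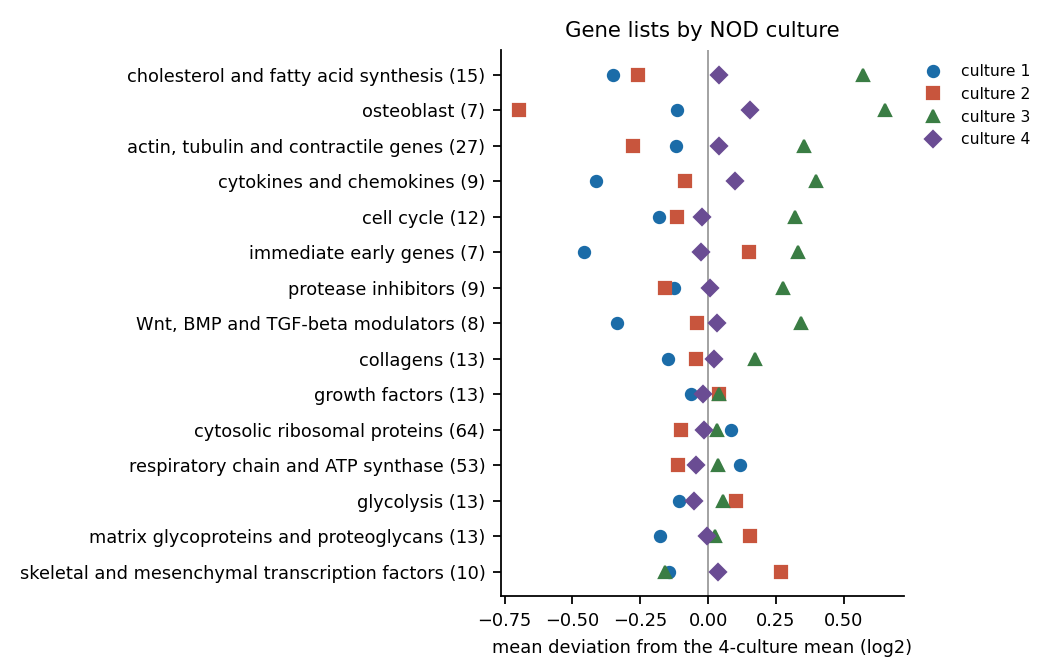
Mean deviation of the detected genes of a selection of the lists from their mean over the 4 NOD cultures, in log2 units, with a symbol for each culture and the number of detected genes in brackets. Among the lists plotted, osteoblast and cholesterol synthesis genes spread the most, with culture 3 at the upper end. The osteoblast mean takes in the near copies Bglap and Bglap2, and was −0.70 in culture 2 where the median deviation was −0.37. Ribosomal genes lay between −0.10 and 0.08, and culture 4 lay between −0.05 and 0.16.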

How the data were processed

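RNA of 4 NOD cultures, taken with 4 BALB/c cultures, was hybridised to single-colour Illumina bead arrays, per the labels' protocols. The deposited table gives the mean signal intensity of each of 46628 probes, which per the file headers was not normalized. It also gives the deposited detection p-value, whose steps fit 1603 negative controls per array. A second table holds the authors' normalized intensity on a linear scale, used as an alternative. Neither the array model nor the authors' way of normalizing is given in the sources used here.

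Control, reporter, reverse-complement and numeric probes (443) were left out. Probe identifiers embed a number that was read as the Entrez gene ID. Of 11857 such probes 9796 (82.6%) matched the RefSeq table of GRCm38.p6, and 13 mitochondrial probes were named from their identifiers. On each NOD array 4 to 5 bright probes had a p-value above 0 but below 1 step, and these were set to 0. Background was corrected with limma 3.58.1 in R 4.3.3 (nec, controls inferred from the p-values, offset 16), all 8 arrays were quantile normalized, and log2 was taken. A gene was read from its probe of highest mean level over the NOD arrays. Counts and summaries were made in Python 3.11.15 with pandas 2.3.3.

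The 4 arrays were described as 1 group, from separate cultures per the series design, and no test was made. Their number limits the precision of every SD. Scripts were tested on simulated data. The gene lists, members and thresholds were chosen with earlier results of these data known. The cholesterol and fatty acid list was added after values were seen, and the definitions of protease inhibitors, cytokines and chaperones were corrected after they had taken in unrelated genes. Genes were named by rule: the 25 brightest, the brightest detected members of each list and undetected cell type markers, the 12 largest and 5 smallest SDs (the latter above the upper quartile of level), the 5 largest gaps of each culture, the 3 markers with their copies, and genes with 1 culture far from the rest. Not every list is described with all 4 of its brightest members, and some genes that the rule selects are not reported here. Further genes were named for their roles after their values were seen, among them Alpl, Pth1r, Fst, Sfrp1, Ccl2, Ccl25, Ptgs2, Cd274 and Il1rap. Alternatives varied the background, normalization, source table, detection filter, choice of probe, scope of probes and the culture left out.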

Additional observations from a re-analysis of the deposited data

Results flagged for a closer look

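In 5 of 156 genes and lists looked at (3.21%), all 5 of them genes, 1 NOD culture lay far from the other 3. This was judged by the gap to its nearest neighbour as a share of the whole range (Dixon's ratio). Chance flags about 1 in 20 groups of 4 independent normal values, a rate that does not apply here because culture 4 follows the other 3. Of all 3808 detected genes 157 (4.12%) met the same criterion. Culture 3 was the far one in 73 of them, culture 2 in 53, culture 1 in 25 and culture 4 in 6. Fbxw5 had a ratio of 0.898, with culture 2 at 9.46 against 6.02 to 6.37 in the others. Loxl1 had 0.919, with culture 3 at 12.74 against 13.19 to 13.23. Tgfb2 had 0.889, with culture 3 at 12.81 against 12.28 to 12.33. Cst3 had 0.863, with culture 3 at 14.03 against 13.90 to 13.91, a gap of little size. Col1a1 had 0.836, with culture 1 at 13.76 against 14.12 to 14.20. No gene list was flagged by its mean deviation. The cause was not tested for any of these genes.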

How the results depend on the processing

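No paired analysis was possible because no test between groups was made. The number of named genes detected on all 4 NOD arrays was 3808 in every scaling, which could hardly change it because each used the same deposited p-values. It was 3291 with p under 0.01. With no filter on dim probes the count was 8111, which is every named gene, detected or not. Over all probes, named or not, it was 14871, a count of probes and not of genes. The median SD of 0.256 became 0.171 with the p-values taken unchanged and 0.148 with no filter, and ran from 0.199 to 0.297 with 1 culture left out. The 81 genes spanning over 4-fold became 53 with the p-values taken unchanged, 41 with no background correction and 42 in the authors' normalized table. They numbered 13 to 81 with 1 culture left out. Over all probes, 448 of the 14871 spanned over 4-fold, again a count of probes. The lowest correlation of 0.936 became 0.975 with no filter and ran from 0.937 to 0.967 with 1 culture left out. Median scaling gave 8 ribosomal and 17 respiratory chain genes highest in culture 1. Culture 4 lay between the others in 98.7% to 99.9% of probes spanning over 2-fold in the settings tried. The genes common to the 100 brightest numbered 77 or 78 with all 4 cultures and 77 to 86 with 1 culture left out. Over all probes, 63 probes were common. Of 1872 values of a named gene's level under an alternative, 196 moved by over 1 SD, most of them under another scale. Detection filters do not alter a gene's level, and leaving out 1 of 4 cultures cannot shift its mean by 1 SD. Each of those settings moved 0 of 144 genes and says nothing about stability. The authors' normalized intensities moved 56 of 144 genes, and quantile normalization over the NOD arrays alone moved 51. Unchanged p-values moved 35, no background correction 20, the mean over detected probes 20 and median scaling 14. Low signal limits the list of undetected genes, and the cause of each change was not tested.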
